A study of Mus musculus with 12 samples.

Results

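The 41 genes described here encode the machinery of DNA replication and cell division, and were taken by symbol from the 54532 genes of each count table. All 41 passed the low-count filter that left 17658 genes for testing. They were sorted by role into 17 genes of replication and S phase, 7 of which are Mcm2 to Mcm7 and Pcna, 20 genes of mitosis, 2 transcription factors and 2 proliferation markers. They were measured by RNA sequencing of colon tissue of male C57BL/6 mice, 6 weeks old at delivery and kept 1 week before the experiment, in 4 groups of 3 libraries. Con mice received the vehicle by gavage according to the methods and their labels name no treatment. DSS mice drank 3% (w/v) dextran sulfate sodium, a polymer toxic to the lining of the colon, for 5 days and received the vehicle. UA+DSS mice drank the same DSS and received ursolic acid (UA, a plant triterpenoid) at 200 mg/kg by daily gavage for 7 days from 1 day before DSS. DSS+UA mice received the same dose for 4 days, beginning 3 days after the start of DSS. These days are those of the methods, and other passages of the study give longer UA courses for both groups. No group analysed here received UA without DSS. The labels do not name the animal or the stretch of colon behind each library, so p-values measure the spread between these libraries.

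A dividing cell first copies its DNA and then separates the copies. The Mcm2 to Mcm7 proteins form the helicase that opens the double helix, Pcna is the clamp that holds the polymerases on DNA, and E2F factors switch on their genes as a cell leaves G1. Cyclin B with Cdk1, the Aurora and Polo kinases, the spindle motors and the anaphase machinery act later, in mitosis, and their genes are transcribed in G2 and M under Foxm1, the Myb-MuvB complex and a promoter element called CHR. In the colon, division takes place in the lower crypt, and DSS colitis is known for damage to the crypts followed by regrowth of the epithelium.

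Replication and mitosis genes parted in DSS colitis. DSS raised 15 of the 17 replication and S phase genes, by a median of 1.03 on the log2 scale, and 0 of the 20 mitosis genes, whose median was 0.27 and of which Plk1 alone was lowered. In UA+DSS against DSS, 15 of the 17 and 12 of the 20 were called lowered, with medians of -1.02 and -1.01. Without the library UA+DSS 2, 1 of the 41 was called there (median of the 41 -0.74), as were 183 of 18260 genes. The UA+DSS libraries also lay apart from all others in a colon position score described below. Against Con, UA+DSS had medians of 0.15 for the replication genes and -0.72 for the mitosis genes, and none of the 41 passed the adjusted threshold there. In DSS+UA none of the 41 differed from DSS past the threshold. All 41 values were positive, and 33 were so without DSS+UA 1. Over all tested genes the median was -0.03 for DSS against Con and -0.02 for UA+DSS against DSS. Of all tested genes DSS raised 13.9% and lowered 12.6%, and 10.5% were lowered in UA+DSS against DSS. In UA+DSS against Con 0.00566% of all were called. In DSS+UA against DSS 7.54% of all were called and 51.3% had positive values.

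**Figure D1:**
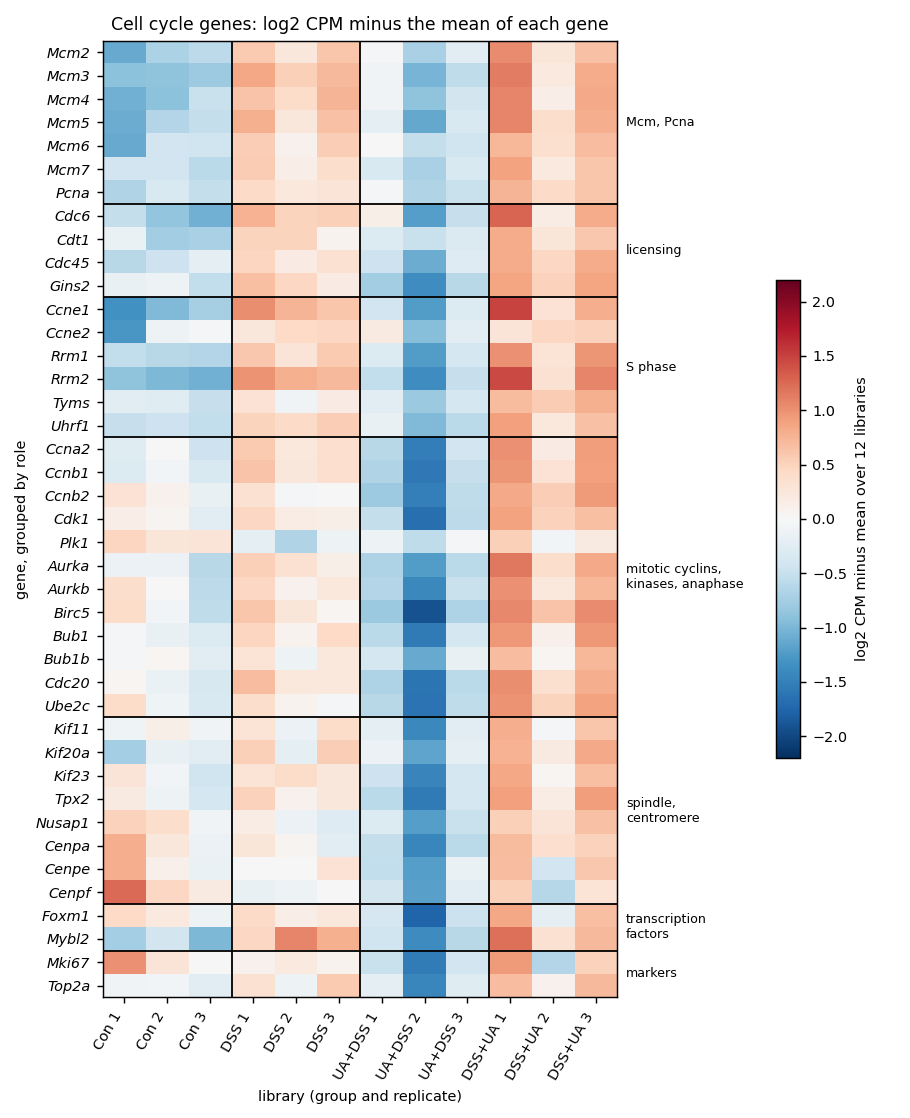
Colour gives log2 CPM minus the gene's mean over the 12 libraries, for the 41 genes (rows, grouped by role) in each library (columns). The Mcm rows are blue in Con and red in DSS, most mitosis rows are paler in both groups, and the column of UA+DSS 2 is the lowest of its group for all 41 genes.

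Values are CPM, the deposited counts scaled to a common library size after TMM adjustment, and are given in the order of replicates 1, 2 and 3. Libraries held 15566216 to 19498383 counts, and the lowest count of any of the 41 genes in a library was 66. Exons of 12 of the 41 genes overlap other genes, and 12 share at least 10% of their 50-base stretches with other genes. Among them, antisense genes overlap 29.3% of the exon bases of Kif20a, 22.8% of Ube2c, 17.4% of Ccne2 and 12.5% of Ccna2. Uhrf1 shares 15.4% of its stretches. These counts are therefore uncertain. A gene is called raised or lowered where edgeR's quasi-likelihood test gave a Benjamini-Hochberg adjusted p under 0.05 over the 17658 genes, and n = 3 libraries a group throughout. UA+DSS 2 was the lowest library of its group for all 41 genes and the lowest of all 12 for 33, and DSS+UA 2 was the lowest of its group for 40. DSS 2 held the most neutrophil marker RNA (16087 CPM over 5 genes, against 550 and 728 in the other DSS libraries) and DSS 3 the most pancreatic enzyme RNA (9494 CPM over the marker list). In bulk tissue, fewer cells of a type and less RNA per cell cannot be told apart.

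Promoters of both sets are shown because their genes parted in DSS. RefSeq windows of GRCm38.p6, from 250 bases before the start of a gene to 50 after it, were at hand for 33 of the 41 genes, with none for Aurkb, Ccna2, Ccne2, Foxm1, Gins2, Kif20a, Mcm4 and Tpx2. An E2F site was searched as TTTCCCGC, TTTGGCGC, TTTCGCGC or TTTGCCGC and the CHR as TTTGAA, on both strands, with matches free to overlap. The spellings came from general knowledge, and the windows printed were chosen after the search. Printed 5′ to 3′ on the strand of the gene, capitals mark E2F matches in the 3 Mcm promoters, CHR matches in those of Ccnb2 and Cdc20, and in that of Cdk1 first 1 E2F and then 2 CHR matches.
Mcm3, chr1:20820263-20820562, minus strand: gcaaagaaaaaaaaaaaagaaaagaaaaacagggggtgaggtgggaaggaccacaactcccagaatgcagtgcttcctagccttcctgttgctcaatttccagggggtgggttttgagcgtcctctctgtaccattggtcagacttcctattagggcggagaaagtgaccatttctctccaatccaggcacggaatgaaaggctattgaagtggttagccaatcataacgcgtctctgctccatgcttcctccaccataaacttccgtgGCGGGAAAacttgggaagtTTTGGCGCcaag
Mcm5, chr8:75109259-75109558, plus strand: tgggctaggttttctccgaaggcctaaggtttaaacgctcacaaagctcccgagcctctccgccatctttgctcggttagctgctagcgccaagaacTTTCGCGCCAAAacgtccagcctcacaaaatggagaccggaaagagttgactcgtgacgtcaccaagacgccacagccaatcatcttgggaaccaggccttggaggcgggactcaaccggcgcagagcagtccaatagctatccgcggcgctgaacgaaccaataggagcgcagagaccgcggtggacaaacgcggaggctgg
Mcm6, chr1:128359656-128359955, minus strand: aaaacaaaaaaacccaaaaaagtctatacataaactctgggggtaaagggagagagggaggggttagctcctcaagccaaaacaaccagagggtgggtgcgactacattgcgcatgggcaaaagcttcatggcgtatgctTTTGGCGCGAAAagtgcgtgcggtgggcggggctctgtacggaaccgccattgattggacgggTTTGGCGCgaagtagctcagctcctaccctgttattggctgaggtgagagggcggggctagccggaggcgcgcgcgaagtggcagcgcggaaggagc
Ccnb2, chr9:70421505-70421804, minus strand: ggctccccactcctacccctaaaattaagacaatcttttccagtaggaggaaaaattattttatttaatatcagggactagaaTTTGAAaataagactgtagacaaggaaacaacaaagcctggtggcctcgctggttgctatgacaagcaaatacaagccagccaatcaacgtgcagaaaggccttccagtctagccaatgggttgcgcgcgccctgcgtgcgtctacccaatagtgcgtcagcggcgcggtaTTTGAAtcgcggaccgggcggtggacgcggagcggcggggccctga
Cdc20, chr4:118437294-118437593, minus strand: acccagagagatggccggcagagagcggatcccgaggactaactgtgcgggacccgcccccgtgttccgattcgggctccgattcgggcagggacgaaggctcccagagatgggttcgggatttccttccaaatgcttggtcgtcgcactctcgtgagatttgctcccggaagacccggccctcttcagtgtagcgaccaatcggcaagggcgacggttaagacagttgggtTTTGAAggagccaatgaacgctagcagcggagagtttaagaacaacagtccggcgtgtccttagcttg
Cdk1, chr10:69352863-69353162, minus strand: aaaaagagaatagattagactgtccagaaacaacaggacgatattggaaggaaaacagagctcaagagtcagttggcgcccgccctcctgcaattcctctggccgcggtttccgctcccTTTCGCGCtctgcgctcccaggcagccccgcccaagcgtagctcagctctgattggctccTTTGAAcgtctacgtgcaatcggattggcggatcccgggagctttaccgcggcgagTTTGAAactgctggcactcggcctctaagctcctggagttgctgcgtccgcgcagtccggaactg

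An E2F match stood in the window of 7 of the 14 replication and S phase genes that had one (Mcm3, Mcm5, Mcm6, Mcm7, Cdt1, Cdc6 and Uhrf1) and in 1 of 16 mitosis genes (Cdk1), against 2.6% of the 27025 genes with a window. The CHR as TTTGAA stood in 11 of the 16 mitosis genes, against 20.2% of all. It was also in Mki67 and Top2a and in 2 of the 14 replication genes (Mcm2 and Cdc45). Further spellings were searched too. TTCGAA or TTTAAA, other spellings of the CHR, stood in 9 of 16 mitosis and 5 of 14 replication genes, against 16.4% of all. A shorter E2F core, TTCCCGC, stood in 6 of 14 replication and 0 of 16 mitosis genes, against 5.29% of all. The pentamer CCAAT, the binding site of NF-Y, was found in 14 of 16 mitosis and 10 of 14 replication genes and in 41.1% of all. These are matches of letters in a fixed window and not sites shown to be bound.

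Of the replication helicase and clamp genes DSS raised 7 of 7, with log2 fold changes of 0.81 to 1.56 and a median of 1.26, where edgeR called 13.9% of all tested genes raised. Mcm3 (ENSMUSG00000041859, chr1:20802968-20820312 on GRCm38), a helicase subunit, read 26.2, 26.7 and 28.3 CPM in Con, 88.3, 70.3 and 80.6 in DSS, 46.5, 24.1 and 33.2 in UA+DSS and 107, 57.2 and 86.6 in DSS+UA. Every DSS and DSS+UA library lay above every Con library, and the UA+DSS libraries spread from just below the Con values to above them. The rise with DSS was 2.95-fold (log2 fold change 1.56 ± 0.26 (SE), edgeR adjusted p = 0.00332), and in UA+DSS the gene was 2.31-fold lower than in DSS (log2 fold change -1.21 ± 0.26 (SE), edgeR adjusted p = 0.0145).

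Mcm2, the subunit that also carries histones at the fork, read 22.2, 29.6 and 32.2 CPM in Con, 71, 56.8 and 72.7 in DSS, 46.8, 29.1 and 40.4 in UA+DSS and 98.7, 57.3 and 75.3 in DSS+UA. Mcm4 read 21, 23.4 and 31.1 CPM in Con, 67.9, 58.1 and 74 in DSS, 41.4, 23.7 and 33.3 in UA+DSS and 92.6, 48.4 and 77.9 in DSS+UA. Mcm5 read 26.2, 35.8 and 38.8 CPM in Con, 96.5, 66.5 and 87.8 in DSS, 47.9, 25.6 and 44.1 in UA+DSS and 118, 73.3 and 97.1 in DSS+UA. For these 3 subunits the lowest DSS library stood above the highest Con library, and DSS and UA+DSS did not overlap. Their log2 fold changes for DSS against Con were 1.26 ± 0.24, 1.40 ± 0.27 and 1.32 ± 0.27, and for UA+DSS against DSS -0.79 ± 0.24, -1.02 ± 0.27 and -1.09 ± 0.27 (± SE), each called.

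Mcm6 read 39.7, 64 and 63.9 CPM in Con, 125, 91.8 and 126 in DSS, 85.7, 60.2 and 63.9 in UA+DSS and 142, 110 and 137 in DSS+UA. Mcm7, whose exons overlap Mir25, Mir93 and the antisense genes Cops6 and Ap4m1, so that its count is uncertain, read 47.7, 47.9 and 42.6 CPM in Con, 94.5, 70.8 and 83.3 in DSS, 50.8, 39 and 51 in UA+DSS and 118, 74.3 and 97.6 in DSS+UA. Pcna read 93.7, 118 and 103 CPM in Con, 198, 175 and 181 in DSS, 145, 93.9 and 106 in UA+DSS and 249, 198 and 226 in DSS+UA. The same order held: Con lowest or level with UA+DSS, and DSS and DSS+UA higher with no overlap with Con. The rises with DSS were 1.03 ± 0.22, 0.85 ± 0.19 and 0.81 ± 0.18 and the differences of UA+DSS from DSS -0.71 ± 0.22, -0.82 ± 0.19 and -0.68 ± 0.18 (log2 ± SE). Mcm6 was the gene of the 7 nearest the threshold in UA+DSS against DSS (edgeR adjusted p = 0.0472). That call was lost in 14 of 22 alternative analyses and the corresponding call of Mcm2 in 9, without a change of direction. Pcna-ps2, a processed copy, shares 19.1% of the 50-base stretches of Pcna. Per kilobase of annotated exon, the level averaged over the 12 libraries was 7.57 CPM for Mcm2, 13.8 to 19.8 for Mcm3 to Mcm7 and 65.5 for Pcna.

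The other replication and S phase genes went the same way. DSS raised 4 of the 4 genes of licensing and firing, which load the helicase and start it: Cdc6 (1.39 ± 0.35), Cdt1 (0.88 ± 0.21), Cdc45 (0.75 ± 0.23) and Gins2 (0.71 ± 0.23, log2 ± SE). The Gins2 call was lost in 14 of 22 alternative analyses, among them leaving out any Con library, DSS 1 or DSS 2, and the Cdc45 call in 7, without a change of direction. Gins2 (ENSMUSG00000031821, chr8:120578633-120589304), a subunit of the GINS part of the helicase, read 14.5, 15 and 11.1 CPM in Con, 25.5, 22.2 and 18.4 in DSS, 9.49, 6.31 and 10.6 in UA+DSS and 29.6, 22.9 and 29.7 in DSS+UA. Its DSS libraries were above Con and its UA+DSS libraries below Con, with no overlap on either side. Of the 41 genes it had the smallest p for UA+DSS against DSS (log2 fold change -1.32 ± 0.23 (SE), edgeR adjusted p = 0.00998). The antisense gene Gse1 overlaps 67.3% of its exon bases, and without stranded counting their reads cannot be told apart.

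Rrm2 (ENSMUSG00000020649, chr12:24708241-24714146), the regulated subunit of ribonucleotide reductase, which makes deoxynucleotides, had the largest log2 fold change of the 41 in both DSS against Con and UA+DSS against DSS. It read 22.2, 20.8 and 19.9 CPM in Con, 82.2, 70.9 and 68 in DSS, 28.5, 15.9 and 28.9 in UA+DSS and 113, 51.8 and 86.5 in DSS+UA. DSS stood 3.51-fold above Con (log2 fold change 1.81 ± 0.28 (SE), edgeR adjusted p = 0.00285) and UA+DSS 3.01-fold below DSS (log2 fold change -1.59 ± 0.28 (SE), edgeR adjusted p = 0.00998). Ccne1, the cyclin E that drives entry into S phase, read 3.98, 5.16 and 6.04 CPM in Con, 20.5, 16.9 and 15.4 in DSS, 7.51, 4.31 and 8.19 in UA+DSS and 28.4, 12.6 and 17.5 in DSS+UA. It rose 3.47-fold with DSS (log2 fold change 1.80 ± 0.34 (SE), edgeR adjusted p = 0.00489). Its paralogue Ccne2 had means of 8.36 ± 3.4 CPM in Con and 14.2 ± 1.08 in DSS (± SD) and was not called (log2 fold change 0.76 ± 0.34, edgeR adjusted p = 0.114).

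Uhrf1, which maintains DNA methylation at the fork, read 33.5, 34.9 and 33 CPM in Con, 67.6, 63.8 and 69.3 in DSS, 43, 24.4 and 31.7 in UA+DSS and 89.7, 56.2 and 75.3 in DSS+UA. Its Con libraries lay within 1.06-fold of each other, and DSS was 1.98-fold higher (log2 fold change 0.98 ± 0.21 (SE), edgeR adjusted p = 0.00819). Rrm1, the large reductase subunit, rose too (1.09 ± 0.25, log2 ± SE). Tyms, thymidylate synthase, read 37.6, 36.9 and 31.3 CPM in Con, 55.1, 41.9 and 50.1 in DSS, 37.6, 25.3 and 34 in UA+DSS and 72.1, 65.8 and 76.6 in DSS+UA. It was the one gene of this role besides Ccne2 that DSS did not raise past the threshold (log2 fold change 0.47 ± 0.17 (SE), edgeR adjusted p = 0.0591), and its DSS+UA libraries were above every DSS library.

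Mitosis genes had lower log2 fold changes than the Mcm genes in DSS against Con. Of the 20, edgeR called 0 raised and 1 lowered, where 13.9% of all genes were called raised and 12.6% lowered. DESeq2 and limma-voom gave the same counts, where they called 5712 of 17485 and 4607 of 17658 genes. The values of 15 of the 20 were positive, against 48.1% of all tested genes. Their median of 0.27 became 0.44 without Con 1 and 0.14 without Con 3. An unadjusted p under 0.05 was found for 5 of the 20, against 40.6% of all tested genes, with higher values for Ccna2, Ccnb1 and Aurka and lower ones for Plk1 and Cenpf. The DSS libraries lay wholly above Con for 5 of the 20 and for 17 of 17 replication and S phase genes, where this held for 21.2% of all tested genes. Ccnb1, cyclin B1, read 40.9, 48.4 and 40.2 CPM in Con, 77.9, 59.7 and 65.1 in DSS, 31.9, 16.9 and 35.7 in UA+DSS and 99.5, 62.7 and 94.7 in DSS+UA. Ccnb2, cyclin B2, read 62.6, 53.6 and 45.3 CPM in Con, 63.4, 49.2 and 50.4 in DSS, 29.1, 17.9 and 34.4 in UA+DSS and 90.3, 73.4 and 96.7 in DSS+UA. The 2 cyclins differed from each other: Ccnb1 was above Con in every DSS library without passing the test (log2 fold change 0.65 ± 0.26 (SE), edgeR adjusted p = 0.0879), while the Ccnb2 libraries of DSS and Con overlapped around means of 54.3 and 53.9 CPM. Pseudogenes share 23.4% of the 50-base stretches of Ccnb1 and make its count uncertain.

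Cdk1, the kinase of both cyclins, read 59.9, 56.2 and 46.3 CPM in Con, 73.7, 60.2 and 59.2 in DSS, 37.5, 17.2 and 36.2 in UA+DSS and 99.7, 76.6 and 85.4 in DSS+UA. Its DSS and Con libraries overlapped (log2 fold change 0.25 ± 0.25 (SE), edgeR adjusted p = 0.486). Cdc20, which activates the anaphase-promoting complex, read 52, 45.3 and 39.5 CPM in Con, 80.8, 58.8 and 59.2 in DSS, 31.5, 16.6 and 33.3 in UA+DSS and 102, 64.1 and 88 in DSS+UA. Ube2c, the ubiquitin-conjugating enzyme of that complex, read 98.6, 69.8 and 59.2 CPM in Con, 97.2, 78.7 and 73.1 in DSS, 48.8, 24 and 50.4 in UA+DSS and 147, 104 and 138 in DSS+UA. The DSS libraries of Cdc20 were above Con, though not called (log2 fold change 0.54 ± 0.26 (SE), edgeR adjusted p = 0.149), and those of Ube2c spread across the Con range.

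Plk1 (ENSMUSG00000030867, chr7:122159439-122169873), the Polo kinase of mitotic entry, read 117, 101 and 102 CPM in Con, 72.8, 53.1 and 78 in DSS, 77.8, 57.4 and 81.7 in UA+DSS and 121, 80.2 and 96.7 in DSS+UA. It was the only member lowered by DSS (1.57-fold, log2 fold change -0.65 ± 0.20 (SE), edgeR adjusted p = 0.0369), and its UA+DSS and DSS libraries overlapped. The call was lost in 11 of 22 alternative analyses, among them leaving out any Con library, DSS 1 or DSS 2 (-0.50 without DSS 2), without a change of direction. Aurkb, the Aurora kinase of the chromosomal passenger complex, read 38.9, 29.5 and 20 CPM in Con, 41.1, 31.8 and 35.2 in DSS, 19, 11.2 and 21.2 in UA+DSS and 59.7, 34.9 and 49.6 in DSS+UA. Birc5, survivin, of the same complex, read 61, 44.1 and 31.4 CPM in Con, 70.4, 55.5 and 47.3 in DSS, 26, 12.2 and 28.7 in UA+DSS and 95.6, 70.9 and 94.2 in DSS+UA. The DSS and Con libraries overlapped for both genes (0.29 ± 0.29 and 0.34 ± 0.32, log2 ± SE) and every UA+DSS library was below every DSS library.

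Among the 8 spindle, centromere and cytokinesis genes the median change with DSS was 0.01, and 4 of 8 had negative values. Nusap1, a spindle microtubule protein, read 54.4, 49.6 and 36.2 CPM in Con, 42.5, 34.7 and 31.4 in DSS, 30.8, 16.5 and 27.2 in UA+DSS and 54.8, 46.4 and 59.4 in DSS+UA. Its highest values lay in Con 1, DSS+UA 1 and DSS+UA 3. Cenpf, a kinetochore protein chosen for mention after its values were seen, had means of 63.3 ± 25.3 CPM in Con and 36.7 ± 2.15 in DSS (± SD). All its DSS libraries were below all Con libraries, without a call (log2 fold change -0.78 ± 0.34 (SE), edgeR adjusted p = 0.111). The motors Kif11, Kif20a and Kif23 and the spindle factor Tpx2 had positive values of 0.22 to 0.67 without a call.

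The 2 transcription factors parted as well. Mybl2 (ENSMUSG00000017861, chr2:163054687-163084688), the B-Myb factor that E2F induces in S phase, read 8.53, 10.9 and 7.27 CPM in Con, 19.7, 30.3 and 24.8 in DSS, 10.6, 5.5 and 9.46 in UA+DSS and 33.5, 18.1 and 23.7 in DSS+UA. It rose 2.8-fold with DSS (log2 fold change 1.48 ± 0.30 (SE), edgeR adjusted p = 0.00685). Foxm1, the factor of G2 and M genes, read 35.1, 30 and 24 CPM in Con, 34.6, 28.8 and 30.6 in DSS, 20, 7.62 and 18.8 in UA+DSS and 46.6, 22.3 and 41.3 in DSS+UA. Its DSS and Con libraries overlapped around means of 31.3 and 29.7 CPM. Other genes share 19.3% of the 50-base stretches of Mybl2.

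Mki67, which encodes Ki-67, the usual marker of cycling cells, was not called in DSS. It read 466, 281 and 230 CPM in Con, 246, 269 and 245 in DSS, 164, 79.9 and 172 in UA+DSS and 443, 148 and 329 in DSS+UA. The 3 DSS libraries lay within 1.1-fold of each other and within the Con range, which Con 1 stretched to 2.02-fold (log2 fold change -0.36 ± 0.40 (SE), edgeR adjusted p = 0.524). Top2a, the topoisomerase that untangles sister chromatids, read 141, 142 and 127 CPM in Con, 188, 137 and 223 in DSS, 128, 54.9 and 124 in UA+DSS and 239, 159 and 244 in DSS+UA. It was not called either (log2 fold change 0.42 ± 0.30 (SE), edgeR adjusted p = 0.325). The Mcm genes separated the same libraries without overlap.

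**Figure D2:**
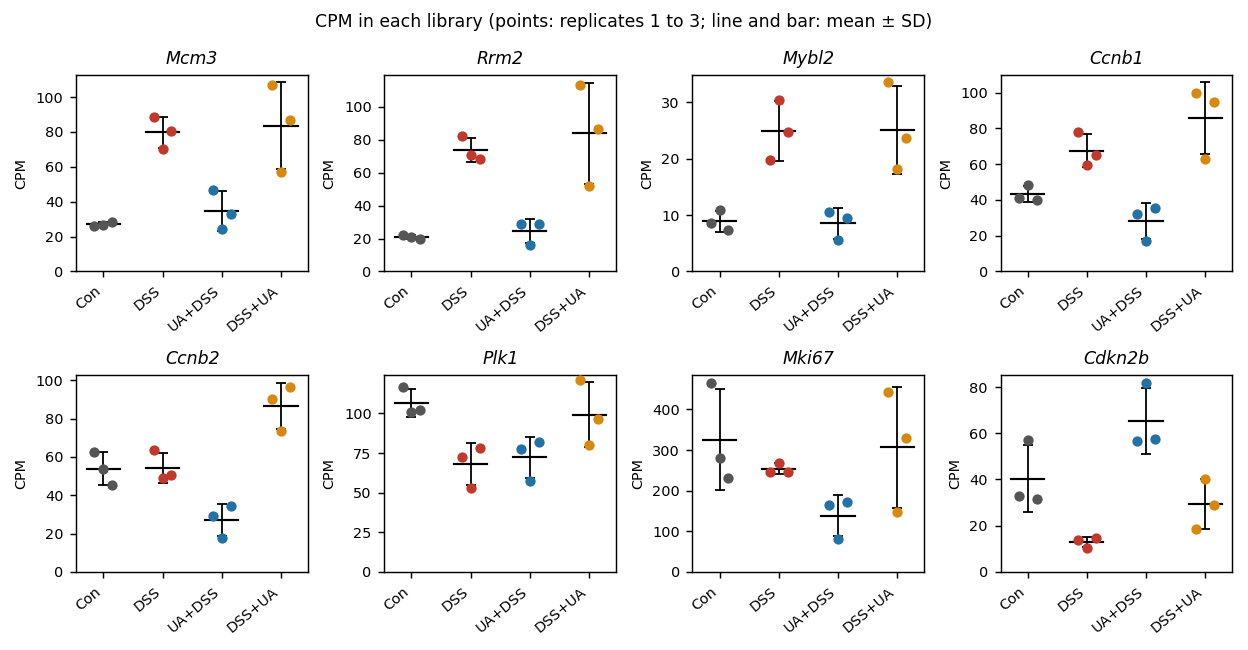
CPM in each library of the 4 groups for 7 of the 41 genes and for the inhibitor Cdkn2b, with points for replicates 1 to 3, a line for the mean and a bar for the SD. Mcm3, Rrm2 and Mybl2 are higher in DSS than in Con without overlap, Ccnb2 and Mki67 overlap, Plk1 is lower, and Cdkn2b is lowest in DSS.

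The balance of the 2 phases was set out for each library as the mean log2 CPM of Mcm2 to Mcm7 and Pcna minus that of the 20 mitosis genes, with a prior count of 2. This difference was -0.55, -0.08 and 0.27 in Con, 0.84, 0.80 and 0.97 in DSS, 0.97, 1.16 and 0.59 in UA+DSS and 0.69, 0.68 and 0.55 in DSS+UA. Each of the 9 libraries of mice given DSS was above each Con library. The means were -0.12 ± 0.41, 0.87 ± 0.09, 0.91 ± 0.29 and 0.64 ± 0.08 (SD). DSS differed from Con by 0.99, made up of 1.18 in the replication mean and 0.19 in the mitosis mean. UA+DSS differed from Con by 1.03, made up of 0.25 in the replication mean and -0.77 in the mitosis mean. The DSS shift thus lay mainly in the replication mean. The larger share of the mitosis mean in the UA+DSS shift rested on UA+DSS 2, without which the 2 means differed from Con by 0.44 and -0.46. These are descriptions, with no test. Leaving out 1 library at a time, the DSS difference of 0.99 ranged from 0.77 to 1.19, and with all 17 replication and S phase genes it was 0.93.

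**Figure D3:**
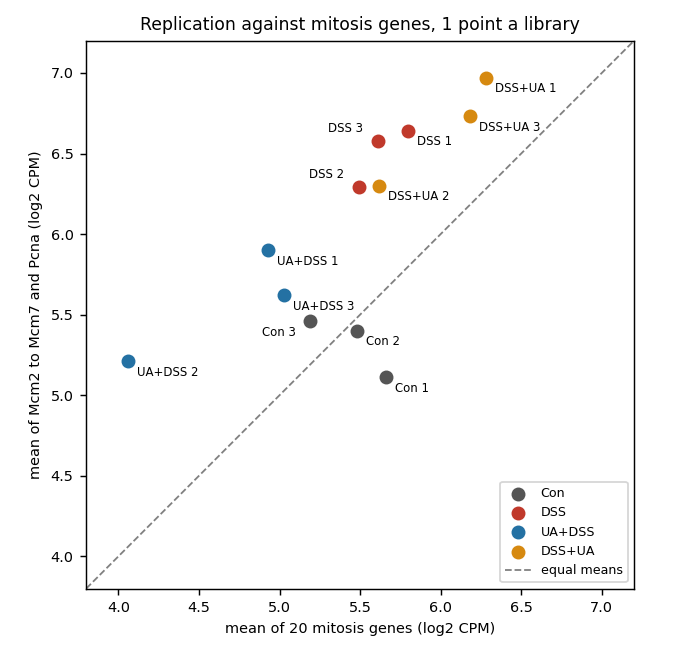
Each point is a library, with the mean log2 CPM of the 20 mitosis genes on the horizontal axis and that of Mcm2 to Mcm7 and Pcna on the vertical axis; the dashed line marks equal means. The 9 libraries of mice given DSS lie above the line by 0.55 to 1.16, and the Con libraries between -0.55 and 0.27 of it.

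Early UA was compared with DSS alone to see whether these genes differed when UA began before the injury. In UA+DSS 28 of the 41 genes were called lowered and 0 raised, against 10.5% of all tested genes called lowered and 8.21% called raised, and the libraries lay wholly below DSS for 39, against 21.7% of all genes. The comparison shares the DSS libraries with that of DSS and Con, so they are not independent. Unlike the DSS rise, this difference took in both phases: 7 of 7 Mcm and Pcna genes (median -0.82), 3 of 4 of licensing, 5 of 6 of S phase entry, 10 of 12 mitotic cyclins, kinases and anaphase genes (median -1.09) and 2 of 8 spindle and centromere genes (median -0.74).

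Several mitosis genes were lowered by 2-fold or more. Cdc20 was 2.44-fold lower in UA+DSS than in DSS (log2 fold change -1.29 ± 0.27 (SE), edgeR adjusted p = 0.0137). Birc5 was 2.59-fold lower (log2 fold change -1.37 ± 0.32 (SE), edgeR adjusted p = 0.0185). Ccnb2 was 2-fold lower (edgeR adjusted p = 0.0174). Ccnb1 differed by -1.26 ± 0.27, Cdk1 by -1.09 ± 0.26, Aurkb by -1.07 ± 0.30 and Ube2c by -1.02 ± 0.28 (log2 ± SE, each called). Mybl2 was 2.93-fold lower (log2 fold change -1.55 ± 0.30 (SE), edgeR adjusted p = 0.0122) and Uhrf1 2.02-fold (log2 fold change -1.02 ± 0.21 (SE), edgeR adjusted p = 0.0137). Mki67 (log2 fold change -0.87 ± 0.41 (SE), edgeR adjusted p = 0.154), Top2a (-0.83 ± 0.31) and Foxm1 (-1.02 ± 0.35) had all UA+DSS libraries below all DSS libraries without passing the threshold. Plk1 was the one gene of the 41 with a positive value, and its libraries overlapped.

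This count depended on single libraries. Without UA+DSS 2, the library lowest of its group in all 41 genes, 1 gene was called (median -0.74), and without DSS 1, 9 were (median -0.94). Leaving out each other library gave 19 to 30. Over all tested genes the same happened, with 183 calls without UA+DSS 2 and 3300 with it. No member called here changed direction in any of the 22 alternatives.

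**Figure D4:**
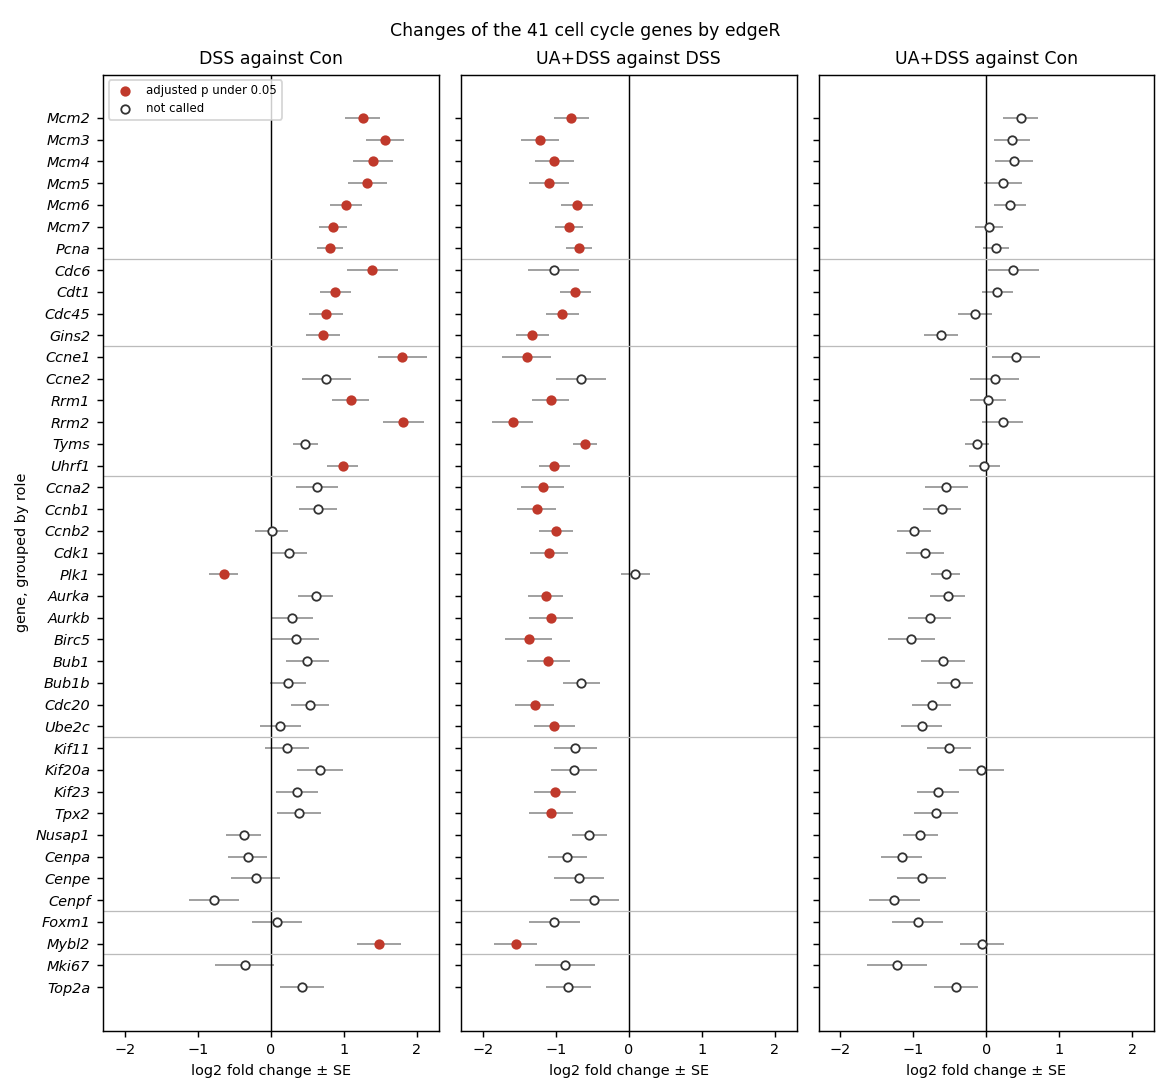
Log2 fold changes with their standard errors for the 41 genes, grouped by role from top to bottom, in 3 comparisons; filled points passed an edgeR adjusted p of 0.05. In DSS against Con the filled points stop at the replication and S phase genes apart from Plk1 and Mybl2, in UA+DSS against DSS they run through both phases, and in UA+DSS against Con there are none, with the mitosis genes to the left of 0.

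Set against Con, UA+DSS showed no called member. edgeR called 0 of the 41, and 0.00566% of all tested genes, while 18 of the 41 had an unadjusted p under 0.05, against 12.1% of all genes. DESeq2 called 4 of the 41, where it called 376 of 17485 genes, and limma-voom 0, where it called 0 of 17658. The 18 were 15 mitosis genes, Gins2, Foxm1 and Mki67, all with lower values in UA+DSS, and for 16 of the 41 all UA+DSS libraries lay below all Con libraries, against 11% of all genes. None of the 7 Mcm and Pcna genes was among them, and their median was 0.32 against -0.72 for the 20 mitosis genes. Ccnb2 had means of 27.1 ± 8.44 CPM in UA+DSS and 53.9 ± 8.65 in Con (± SD, log2 fold change -0.99 ± 0.23 (SE), edgeR adjusted p = 0.216). Mki67 had means of 139 ± 51.1 and 326 ± 124 CPM (log2 fold change -1.23 ± 0.41 (SE), edgeR adjusted p = 0.312). Cenpa, the centromeric histone, and Cenpf had values of -1.16 ± 0.28 and -1.26 ± 0.35 (log2 ± SE), both chosen for mention after their values were seen. Without UA+DSS 2 the medians were 0.46 for the Mcm and Pcna genes and -0.45 for the mitosis genes.

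Late UA was then compared with DSS alone. In DSS+UA against DSS edgeR called 0 of the 41, where it called 7.54% of all tested genes, and 5 of the 41 had an unadjusted p under 0.05, against 29.9% of all genes. DESeq2 called 1, Tyms, where it called 3126 of 16458 genes, and limma-voom 0, where it called 1152 of 17658. All 41 values were positive, against 51.3% of all tested genes, with medians of 0.20 for the Mcm and Pcna genes and 0.40 for mitosis genes. With library size alone as scaling, which set the median of all genes at -0.11, 38 of the 41 were positive. With the colon position score described below as a covariate, 37 were positive. DSS+UA 1 was the highest of the 12 libraries for 27 of the 41 genes. Without it 33 were positive, with medians of 0.04 for the Mcm and Pcna genes and 0.28 for mitosis genes. For 8 of the 41 all DSS+UA libraries were above all DSS libraries, against 18.3% of all genes.

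The 5 smallest p belonged to Tyms (log2 fold change 0.54 ± 0.17 (SE), edgeR adjusted p = 0.0671), Ccnb2 (0.68 ± 0.23), Plk1 (0.55 ± 0.20), Nusap1 (0.56 ± 0.24) and Ube2c (0.64 ± 0.28, log2 ± SE). For each, the lowest DSS+UA library stood above the highest DSS library. Plk1, lowered by DSS, read 99.2 CPM on average in DSS+UA and 106 in Con.

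Against Con, DSS+UA had 22 of the 41 genes raised, against 9.13% of all tested genes, and 0 lowered. They were 16 of 17 replication and S phase genes, Mybl2 and 5 mitosis genes: Ccna2, Ccnb1, Aurka, Cdc20 and Kif20a. Rrm2 was 3.99-fold higher (edgeR adjusted p = 0.00489) and Aurka, the Aurora kinase of the spindle pole, 2.15-fold (log2 fold change 1.10 ± 0.24 (SE), edgeR adjusted p = 0.0128). Of these 22 calls, 15 held in each of the 22 alternatives. Of the 6 comparisons, that between the 2 UA groups gave the most calls: UA+DSS was lowered in 36 of 41 genes, against 9.23% of all genes, with a median of -1.25. Birc5 was 3.89-fold lower in UA+DSS than in DSS+UA (log2 fold change -1.96 ± 0.33 (SE), edgeR adjusted p = 0.0077) and Rrm2 3.42-fold (log2 fold change -1.78 ± 0.28 (SE), edgeR adjusted p = 0.00748). Without UA+DSS 2 the 36 became 18, and the calls over all genes went from 2961 of 17658 to 560 of 18260.

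The genes that gate entry into the cycle were taken from lists of 95 further cell cycle genes, of which 94 were tested. DSS raised 16 and lowered 3 of them, against 13.9% and 12.6% of all tested genes. UA+DSS against DSS had 32 lowered and 2 raised, against 10.5% and 8.21% of all, and DSS+UA against DSS had 1 raised, against 2.54%. UA+DSS against Con had 0 called (0 by DESeq2 and limma-voom) and 31 at an unadjusted p under 0.05, against 12.1% of all. Of all genes DESeq2 called 376 of 17485 there and limma-voom 0 of 17658. DSS+UA against Con had 23 raised and 1 lowered, against 9.13% and 8.95%, and UA+DSS against DSS+UA 55 lowered and 4 raised, against 9.23% and 7.54%. Of 28 other replication genes DSS raised 9 and lowered 0, and of 28 other mitosis genes it raised 0 and lowered 1, where 13.9% of all genes were raised and 12.6% lowered.

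Cdkn2b, which encodes p15, an inhibitor of the cyclin D kinases, was lowest in DSS. It read 32.6, 56.9 and 31.4 CPM in Con, 13.7, 10.3 and 14.8 in DSS, 56.5, 81.7 and 57.3 in UA+DSS and 18.6, 40.3 and 29.1 in DSS+UA. Its DSS libraries were below all others and its UA+DSS libraries high, with UA+DSS 2 the highest of the 12. DSS lowered it 3.12-fold (log2 fold change -1.64 ± 0.32 (SE), edgeR adjusted p = 0.00554), and UA+DSS stood 5.04-fold above DSS (log2 fold change 2.33 ± 0.32 (SE), edgeR adjusted p = 0.00725) and DSS+UA 2.27-fold above it (log2 fold change 1.18 ± 0.31 (SE), edgeR adjusted p = 0.0458). The call for DSS+UA was lost in 13 of 22 alternatives, with a value of -0.10 when the epithelial markers were a covariate and of 0.84 without DSS+UA 2. Leaving out any DSS or any UA+DSS library, or DSS+UA 3, also lost it.

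Of the other CDK inhibitors, Cdkn2d (p19) was lower in UA+DSS than in DSS (log2 fold change -1.54 ± 0.45 (SE), edgeR adjusted p = 0.0367), where DSS 2 alone read 71.4 CPM against 23.6 and 15.8. Without DSS 2 the value was -0.64 and not called. Between the UA groups Cdkn1c (p57) was higher (0.99 ± 0.28) and Cdkn2c (p18) lower (-0.76 ± 0.17) in UA+DSS (log2 ± SE, both called). Cdkn1a (p21) had means of 203 ± 111 CPM in Con, 151 ± 11.4 in DSS, 223 ± 3.85 in UA+DSS and 189 ± 76.7 in DSS+UA (± SD), with Con 2 at 315 and Con 1 at 92.5. Cdkn1b (p27) had means of 125, 98.5, 115 and 78 CPM in the same order. Neither was called in any comparison, and Cdkn2a did not pass the low-count filter.

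Among the D cyclins, which open G1, DSS raised Ccnd1 (log2 fold change 1.00 ± 0.28 (SE), edgeR adjusted p = 0.0249) and Ccnd3 (log2 fold change 1.12 ± 0.25 (SE), edgeR adjusted p = 0.00903), while Ccnd2 had means of 202 CPM in Con and 227 in DSS with overlapping libraries. Ccnd3 was lower in UA+DSS than in DSS (log2 fold change -0.82 ± 0.25 (SE), edgeR adjusted p = 0.041). Its value in DSS 2, 145 CPM, stood above those of DSS 1 and DSS 3, 78.4 and 73.9, and without it the value was -0.44 and not called. Cdk6, a kinase partner of these cyclins, read 43, 50.6 and 60 CPM in Con, 24, 37.4 and 27.6 in DSS, 39.2, 47 and 41.3 in UA+DSS and 22.2, 12.6 and 16.6 in DSS+UA. It was lowered in DSS (log2 fold change -0.79 ± 0.23 (SE), edgeR adjusted p = 0.0278) and in DSS+UA (log2 fold change -1.58 ± 0.23 (SE), edgeR adjusted p = 0.00504), with the smallest values in that group.

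E2f1, the E2F that starts S phase genes, read 6.36, 8.76 and 7.54 CPM in Con, 14.1, 15.4 and 15.2 in DSS, 9.69, 6.12 and 7.02 in UA+DSS and 15.9, 12.7 and 15.7 in DSS+UA. Its libraries fell into a low pair of groups, Con and UA+DSS, and a high pair, DSS and DSS+UA, without overlap (log2 fold change 0.98 ± 0.22 (SE), edgeR adjusted p = 0.00911 for DSS against Con). Chaf1b, a chaperone that places histones behind the fork, was among the genes of these lists with the smallest p in UA+DSS against DSS (-1.11 ± 0.21, log2 ± SE, called). Gmnn, geminin, which blocks relicensing, was the third by p in DSS+UA against DSS without a call (log2 fold change 0.59 ± 0.20 (SE), edgeR adjusted p = 0.0808). Pttg1, which encodes securin, was lowered by DSS and raised in UA+DSS against DSS (-0.80 ± 0.22 and 0.76 ± 0.22, log2 ± SE, both called). It is named after its values were seen.

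Other measures moved with these groups. Summed over 7 epithelial markers the level was 9754 to 13548 CPM in Con, 5752 to 8822 in DSS, 10189 to 12290 in UA+DSS and 11957 to 17109 in DSS+UA, and 2 of the 7 were called lowered by DSS. Relative to the mean log2 CPM of these markers, the mitosis genes stood at -4.96 to -4.40 in Con, -4.23 to -3.65 in DSS, -6.10 to -5.13 in UA+DSS and -5.01 to -3.91 in DSS+UA, and the Mcm and Pcna genes at -5.04 to -4.56, -3.26 to -2.85, -4.95 to -4.15 and -4.34 to -3.22. With the epithelial mean as a covariate, 0 members were called in DSS against Con and 0 in UA+DSS against DSS. Of all 17658 tested genes, 302 and 0 were called in these comparisons, against 4688 and 3300 without it. The median change of all 41 was 0.60 and -0.84 with the covariate (0.61 and -1.02 without it). The median SE rose from 0.27 to 0.41 in both. Of 6 crypt base markers DSS lowered 3 and raised 1, with sums of 121 to 180 CPM in Con and 74.5 to 116 in DSS. It lowered 12.6% and raised 13.9% of all tested genes.

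B cells divide in lymphoid follicles, and their 6 markers summed to 13.8 to 95.1 CPM in Con, 66.0 to 323 in DSS, 17.1 to 29.8 in UA+DSS and 56.7 to 227 in DSS+UA, with 1 called raised by DSS and 3 lowered in UA+DSS against DSS. Germinal centre markers summed to 24.8 to 33.0, 36.5 to 107, 27.2 to 29.1 and 23.3 to 31.8 CPM, with 2 of 6 raised and 1 lowered by DSS. DSS also raised 5 of 5 neutrophil markers, 4 of 5 T cell, 4 of 5 fibroblast, 3 of 5 macrophage and monocyte, 3 of 5 plasma cell and 2 of 4 endothelial markers. UA+DSS against DSS had 5 of the neutrophil, 3 of the fibroblast, 3 of the macrophage, 3 of the endothelial and 1 of the plasma cell markers lowered and 0 of the T cell markers. Of all tested genes DSS raised 13.9% and lowered 12.6%, and 10.5% were lowered in UA+DSS against DSS. In summed level, macrophage markers ranged from 67.4 to 164 CPM in Con, 354 to 642 in DSS, 114 to 260 in UA+DSS and 125 to 429 in DSS+UA, and T cell markers from 10.9 to 19.8, 29.5 to 83.4, 17.6 to 60.3 and 20.4 to 53.9. Fibroblast markers ranged from 887 to 1547 CPM in Con, 2664 to 5940 in DSS, 512 to 1325 in UA+DSS and 751 to 1927 in DSS+UA. No list had a marker at 0 in every library. The part of B cells and of other cell types in the changes of the 41 genes was not tested.

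A measure of position along the colon also moved with the groups. A position score (mean log2 CPM of 5 Hox genes active toward the rectum minus that of 6 active toward the caecum) was 5.53, -3.03 and -1.83 in Con, 3.1, 1.35 and 0.37 in DSS, -4.88, -5.7 and -4.16 in UA+DSS and 4.11, 4.47 and 5.06 in DSS+UA. The UA+DSS libraries lay below all others, so early UA and colon position cannot be told apart. With this score as a covariate, 0 members were called in UA+DSS against DSS (median -0.80, median SE 0.41) and 0 in UA+DSS against DSS+UA (median -1.11, median SE 0.52). Of all 17658 tested genes, 3 and 0 were called in these comparisons, against 3300 and 2961 without the covariate. In DSS against Con 16 members were raised and 1 lowered with it, and 5382 of all genes were called. Con 1, which stands toward the rectum, had the highest Mki67, Cenpf, Cenpa and Nusap1 and the lowest Mcm2, Mcm4 and Mcm6 of the Con libraries.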

How the data were processed

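RNA of colon tissue from 12 samples in 4 groups of 3 was sequenced, one library a sample. The authors deposited raw counts per gene (Ensembl identifier and symbol) for each library, with no normalization. The submitters' processing notes name HISAT2, GRCm38, FastQC and Cuffdiff; for the counting program, its strand setting and the versions, nothing was found in the sources used here. The labels name Trizol and the methods a column kit for RNA extraction. Of 54532 genes, 37 had no name in the annotation and held 0.00364% of the counts. They were kept in the counts that entered the low-count filter.

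Counts were filtered with filterByExpr (17658 genes kept, 99.8% of the counts), scaled by TMM (factors 0.871 to 1.09) and fitted over all 12 libraries with edgeR 4.0.16 (robust quasi-likelihood, no covariate), in R 4.3.3; p-values of the 17658 genes were adjusted together by Benjamini-Hochberg and called under 0.05. The biological coefficient of variation was 0.352. DESeq2 1.42.0, limma-voom (limma 3.58.1), other scalings and filters, a replicate block, a position and an epithelium covariate, 2-group fits and leaving out each library were alternatives. The code was tested on simulated counts. Tables and promoter searches used Python 3.11.15. Libraries held 15566216 to 19498383 counts. Replicates of a group differed beyond counting noise (chi-square per degree of freedom at least 20.9).

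The 41 genes and all lists were chosen with earlier results of these data known. All values are given for Mcm2 to Mcm7, Pcna, 12 further genes listed by role (Mki67, Top2a, Cdk1, Ccnb1, Ccnb2, Plk1, Aurkb, Birc5, Cdc20, Ube2c, Foxm1 and Mybl2) and the 5 members with the smallest p in each of the 3 comparisons with DSS; of the other cell cycle genes, the 3 with the smallest p in each, the CDK inhibitors and the D cyclins are named, except 1 gene that is not reported here.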

Additional observations from a re-analysis of the deposited data

Results flagged for a closer look

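The 2 UA groups were compared by a test of the difference itself. In UA+DSS against DSS+UA, which equals the difference between each group's change from the shared DSS libraries, edgeR called 36 of the 41 genes, all of them lower in UA+DSS, and 18 without UA+DSS 2. Of all genes, 2961 of 17658 were called, and 560 of 18260 without UA+DSS 2. With the colon position score as a covariate, 0 of the 41 and 0 of all 17658 genes were called, with a median of -1.11 for the 41. The start and the length of the UA course cannot be told apart, since both differed between the groups. Colon position cannot be told apart from either. Its score ran from -5.7 to -4.16 in UA+DSS and from 4.11 to 5.06 in DSS+UA. Groups of 3 libraries are too small to tell whether UA+DSS 2, the lowest of its group for all 41 genes, is an outlier.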

How the results depend on the processing

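No called member reversed in any of the 22 alternatives. With the epithelial markers as a covariate, 0 members were called in DSS against Con and 0 in UA+DSS against DSS. Of all 17658 genes, 302 and 0 were called in these comparisons, against 4688 and 3300 without it. Cdkn2b for DSS+UA against DSS turned to -0.10 with these markers as a covariate. With the colon position score as a covariate, 0 were called in UA+DSS against DSS and 0 in UA+DSS against DSS+UA. Of all 17658 genes, 3 and 0 were called there, against 3300 and 2961 without this covariate. A fit of the 2 groups compared called 17 in UA+DSS against DSS, and 2072 of 16738 genes. DESeq2 called 1 in DSS+UA against DSS and 4 in UA+DSS against Con, where it called 3126 of 16458 and 376 of 17485 genes. Leaving out 1 library at a time gave 1 to 30 calls in UA+DSS against DSS (1 without UA+DSS 2, 9 without DSS 1) and 18 to 38 in UA+DSS against DSS+UA (18 without UA+DSS 2). Of all genes, 183 of 18260 and 1722 of 18231 were called in UA+DSS against DSS without UA+DSS 2 and without DSS 1. In UA+DSS against DSS+UA 560 of 18260 were called without UA+DSS 2. The cause of these shifts was not tested. Member calls were lost in 49 of 374 pairs of a call and an alternative for DSS against Con, 147 of 616 for UA+DSS against DSS, 42 of 484 for DSS+UA against Con and 104 of 792 for UA+DSS against DSS+UA, all without a change of direction. Deviations of same-numbered libraries correlated between -0.216 and 0.187, and those of differently numbered ones between -0.289 and 0.24. Groups of 3 are too small to tell from this whether the numbers pair the libraries, and the labels do not say. With the replicate block, 16 members were called in DSS against Con, 31 in UA+DSS against DSS, 0 when DSS+UA was set against DSS, 0 in UA+DSS against Con, 24 in DSS+UA against Con and 36 in UA+DSS against DSS+UA. In the same order, 4373, 3151, 552, 1, 2920 and 2998 of all 17658 genes were called. With 3 libraries a group, the spread between libraries and not the depth limited these comparisons, since the lowest member count was 66.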
